A study of Mus musculus with 8 samples.

Results

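The comparison of CCL3 with carrier over both genotypes covers all 8 arrays of the series: 4 from mice injected with CCL3 and 4 from mice injected with its carrier, chosen by the sample titles, with genotype as a covariate. Total RNA of the olfactory mucosa, the nasal tissue that houses the olfactory neurons, was hybridised to single-colour mouse expression arrays. Every mouse had both olfactory bulbs removed, an operation that takes the axon target away from the olfactory neurons. The arrays form 4 groups of 2: wild-type C57BL/6 mice given carrier, wild-type mice given CCL3, mice labelled Ccl3-/- given carrier, and mice labelled Ccl3-/- given CCL3. No group without bulbectomy or without injection was analysed here, so each difference is one between injected, operated mice. The sources used here do not give the ages of the mice, the dose, route and timing of the injection, or the deleted part of Ccl3. The labels also do not say whether replicates were separate animals or pools, so p-values reflect array-to-array spread that may be technical.

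CCL3, formerly named MIP-1 alpha, is a chemokine that draws monocytes, macrophages and other leukocytes by way of receptors that include CCR1. Removal of the bulb cuts the axons of the olfactory neurons, which then die and are replaced by the division of basal cells in the epithelium. Macrophages enter the epithelium during this turnover, clear dead neurons and can release cytokines such as LIF and interleukin 1. The series' title asks how CCL3 bears on that recruitment, and the present comparison asks which genes differ with the injected protein irrespective of genotype.

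Of 12488 probe sets, 8150 were brighter than 362.7 on at least 2 arrays and were tested, covering 6181 named genes. The median intensity per array lay between 581.4 and 660.3. Omp, the marker protein of mature olfactory neurons, was far above that on each array (4251.1 to 21779). Wild-type carrier replicate 1 stood apart in its Gapdh 3' to 5' signal ratio, an indicator of RNA integrity, at 2.59 against 0.755 to 1.31 on the other arrays. Its beta-actin 3' to 5' ratio was instead the lowest, at 1.58 against 1.61 to 2.17, so these ratios pointed opposite ways. That array also lay furthest from the mean of all arrays. The 4 carrier arrays differed more among themselves than the 4 CCL3 arrays, with root mean square log2 distances from the mean of all arrays of 0.383 to 0.521 and 0.265 to 0.319. Differences below are log2(intensity + 102.3) on CCL3 arrays minus the same on carrier arrays, adjusted for genotype, with the standard error (SE) of the limma fit. The added constant understates the differences of dim genes. In bulk tissue, fewer cells of a type and less RNA per cell cannot be told apart.

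The Ccl3 probe set itself did not separate the injections. Its intensity was 332.3 and 159.4 on the wild-type carrier arrays, 223.1 and 386.5 on the wild-type CCL3 arrays, 812.2 and 803.6 on the Ccl3-/- carrier arrays, and 727.3 and 729.5 on the Ccl3-/- CCL3 arrays. The 4 arrays labelled Ccl3-/- were thus higher than the 4 wild-type arrays, against the label, and a probe set outside the deleted part would check nothing. The genotypes are named by their labels throughout. CCL3 minus carrier was 0.06 ± 0.25 for Ccl3. The neighbouring chemokine gene Ccl4 (-0.01 ± 0.23) and the receptor gene Ccr1 (-0.36 ± 0.30) were too dim to be tested.

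CCL3 against carrier gave no probe set with an adjusted p under 0.05 (0% of 8150; lowest adjusted p 0.111 in limma with Benjamini-Hochberg adjustment). At an unadjusted p under 0.05, 361 probe sets (4.43%) were counted, 191 higher (2.34%) and 170 lower (2.09%). Independent probe sets without any difference would give 408. As a description of direction, 439 probe sets (5.39%) had CCL3 arrays that overlapped with the carrier arrays in neither genotype and pointed the same way in both, 239 of them higher (2.93%) and 200 lower (2.45%). These splits depended on scaling. With every array set to the same median, 249 of 382 probe sets under the unadjusted p were higher (65.2%, against 52.9%), and 352 of 495 without overlap were higher and 143 lower (71.1% higher, against 54.4%). The CCL3 arrays lay above all 4 carrier arrays for 1.58% of probe sets and below all 4 for 1.14%. Without wild-type carrier replicate 2 the number under the unadjusted p was 857, and without Ccl3-/- CCL3 replicate 1 it was 222. Differences were small: 14 probe sets were over 2-fold higher and 29 over 2-fold lower. An exact permutation of injection within genotype has 36 assignments and cannot give a two-sided p below 0.0556 for a single value. All genes named below failed the adjusted threshold; apart from Lox, whose value is given with it, each had an adjusted p of 0.977 or above in limma.

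Across probe sets, the CCL3 difference in the wild type did not go with that in the mice labelled Ccl3-/-. The difference in the wild type and that in Ccl3-/- come from separate arrays, and over the 8150 probe sets they had a Pearson correlation of -0.000293 and a Spearman correlation of -0.0275. The same sign was found for 3960 of them (48.6%). Leaving out 1 array at a time moved the Pearson correlation between -0.143, without wild-type carrier replicate 1, and 0.1045, without wild-type carrier replicate 2. These are descriptions across genes, which are not independent replicates. The standard deviation of the differences over all probe sets was 0.406 in the wild type, 0.397 in Ccl3-/- and 0.284 in their average. In the plot of both genotypes the cloud of points is round.

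**Figure D1:**
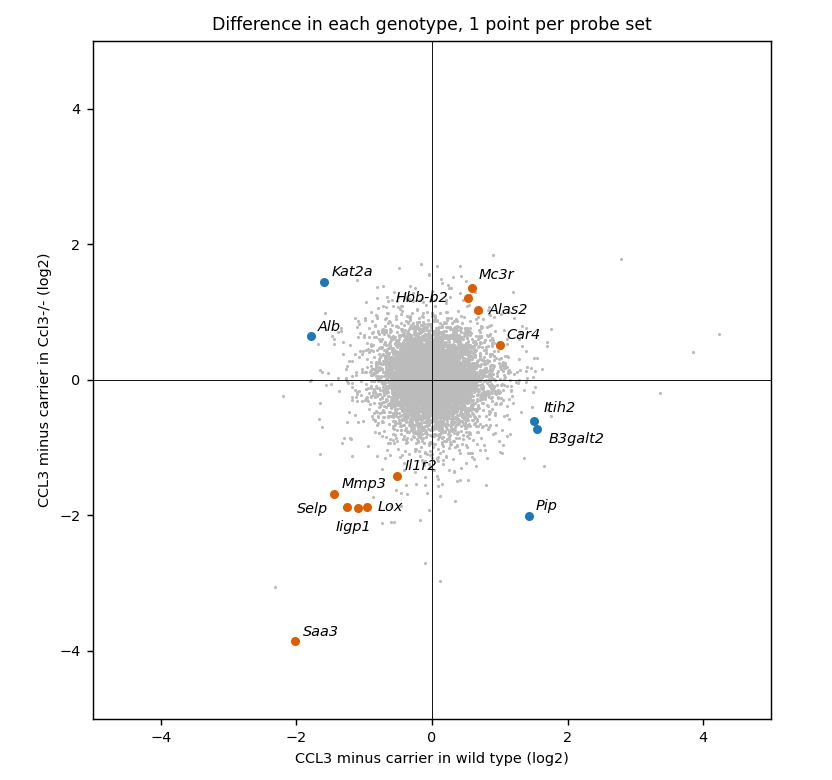
CCL3 minus carrier in the wild type (x axis, log2) against the same difference in mice labelled Ccl3-/- (y axis, log2), with 1 grey point for each of the 8150 tested probe sets. Named genes with an unadjusted interaction p of 0.05 or more are orange and those with a smaller one are blue; the cloud shows no slope (Pearson correlation -0.000293), and Saa3 lies lowest in Ccl3-/-.

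The smallest p-values belonged to probe sets without a single gene name. One that the platform annotation matches to several genes, and that is therefore unnamed, was higher after CCL3 by 2.29 ± 0.31 (adjusted p = 0.111 in limma). Its intensity was 1320.2 and 2973.1 on the wild-type carrier arrays and 1629.1 and 2971.8 on the Ccl3-/- carrier arrays. On the CCL3 arrays it was 11991.5 and 17316.7 in the wild type and 8698.7 and 7017.4 in Ccl3-/-, so that all 4 were above all 4 carrier arrays. Another unnamed probe set of several genes was lower by 2.68 ± 0.43 on the log2 scale (adjusted p = 0.238 in limma), at 1806.8, 414.1, 2342.5 and 1926.1 on the carrier arrays and 70.0, 130.5, 56.8 and 350.2 on the CCL3 arrays, also without overlap. A passing call for the first appeared without Ccl3-/- carrier replicate 2 (2.55, adjusted p = 0.0452 in limma), and for the second without wild-type carrier replicate 2 (-3.13, adjusted p = 0.0296 in limma).

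Saa3, a gene of the acute phase response, had the largest difference of any named gene in the lower direction. Acute phase genes encode plasma proteins and secreted defence proteins that are switched on by interleukin 1 and interleukin 6 during tissue injury. Saa3, an acute phase serum amyloid made by macrophages and epithelium, was at 3563.0 and 341.8 on the wild-type carrier arrays and at 3241.5 and 4742.8 on the Ccl3-/- carrier arrays. After CCL3 it was at 31.9 and 638.5 in the wild type and at 74.8 and 333.5 in Ccl3-/-. Only wild-type carrier replicate 2 lay among the CCL3 arrays, and the average difference was -2.94 ± 0.70, a 7.66-fold lower level after CCL3. Leaving out 1 array at a time gave -3.73 to -2.49.

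Other acute phase genes were also lower on average after CCL3. Orm1, which encodes the plasma glycoprotein orosomucoid, was at 373.8, 162.5, 1057.8 and 830.3 on the carrier arrays and at 87.9, 250.3, 127.9 and 364.4 on the CCL3 arrays (-1.06 ± 0.38). Saa2 was at -1.04 ± 0.36 by its brightest probe set. Another of nearly the same brightness was at -0.00 ± 0.27, with -0.54 in the wild type and 0.53 in Ccl3-/-. Members of the serum amyloid family can share signal. Ahsg, which encodes fetuin-A, a plasma protein that is not switched on in this response, was at -0.92 ± 0.32 with no overlap in either genotype. Cebpd, a transcription factor of the acute phase response, was at -1.23 ± 0.42, and Lrg1, a plasma glycoprotein of the same response, was at -1.15 ± 0.43. Cp, the copper carrier ceruloplasmin, was at -1.12 ± 0.44, with -0.18 in the wild type and -2.07 in Ccl3-/-. Cebpd, Lrg1 and Cp were picked after their values were seen. On wild-type carrier replicate 2 all 3 were near the CCL3 arrays: Cebpd was at 3015.8 there, against 11144 to 19905 on the other carrier arrays and 3361.3 to 4826.7 on the CCL3 arrays.

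Of 52 complement and acute phase genes listed, 39 were on the array and 26 were tested. After CCL3, 9 were higher and 17 lower, and 7 of the lower and none of the higher were under the unadjusted p, against 2.04% of all named genes lower. The groups overlapped in neither genotype for 3 of the 26, against 2.38% of named genes lower. The list also holds plasma protein genes that are not switched on in the acute phase, such as Ahsg and Alb. Ahsg is among both the 7 and the 3, so these counts do not measure the acute phase response alone. The list's median was -0.09, beside 0.01 over all tested probe sets. Without wild-type carrier replicate 1, 4 genes were lower at the unadjusted p and the median was -0.32, and without Ccl3-/- carrier replicate 2 these were 4 genes and -0.10. Neutrophil marker genes summed to 117238.5 to 242064.7 on carrier arrays and 124243 to 145527.8 on CCL3 arrays. The CCL3 range lay inside the carrier range, and the part of neutrophils in the acute phase difference was not tested.

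Among cytokine receptor and signalling genes, Osmr, the receptor subunit for oncostatin M, was at 2777.6, 1203.6, 2533.1 and 2680.4 on the carrier arrays and at 1243.4, 1469.1, 989.1 and 945.5 on the CCL3 arrays (-0.88 ± 0.27). Again wild-type carrier replicate 2 was the low carrier array. Socs3, the feedback inhibitor of that signalling, was at -0.78 ± 0.23 by one probe set and -0.52 ± 0.28 by the other. Lifr, the receptor for LIF, was at -0.49 ± 0.26, with -0.05 in the wild type and -0.93 in Ccl3-/-. Il1r2, the decoy receptor that takes up interleukin 1, was at 736.1, 602.8, 888.8 and 866.9 on the carrier arrays and at 406.2, 471.2, 207.1 and 332.0 on the CCL3 arrays. These did not overlap (-0.96 ± 0.25). A further Il1r2 probe set was at 0.12 in the wild type and -1.71 in Ccl3-/-. Of 26 tested cytokine receptor and signalling genes, 12 were higher and 14 lower, with a median of -0.11. At the unadjusted p 2 were lower and none higher, against 2.04% of all named genes lower and 2.43% higher.

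Among 9 tested cytokines and products of activated macrophages, 5 were higher and 4 lower. Of the 9, 3 were lower under the unadjusted p, against 2.04% of all named genes. Arg1, the arginase of alternatively activated macrophages, was at 365.9, 171.8, 660.9 and 751.4 on the carrier arrays and at 92.8, 293.9, 105.3 and 198.0 on the CCL3 arrays (-1.03 ± 0.37). Il1rn, the secreted antagonist of the interleukin 1 receptor, was at -0.97 ± 0.38 and was dim in the wild type, where 200.6 was its highest value. Pdgfb, a growth factor for mesenchymal cells, was at -0.77 ± 0.34, with -1.38 in the wild type and -0.17 in Ccl3-/-. The list's median was 0.06, opposite in sign to these 3 genes.

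Of the tested matrix proteases and inhibitors, 14 of 17 were lower after CCL3. Matrix metalloproteinases cut collagen and other matrix proteins, and several are induced in inflamed tissue through AP-1 sites near the gene's start. The promoters of Mmp3 and Mmp13, the members with the largest differences, are shown because they hold such sites, and that of Cxcl1, a neutrophil-attracting chemokine gene also lower after CCL3, because it holds NF-kB motifs. Each is the 120 bases before the gene's start on the forward strand of GRCm38.p6, from RefSeq, at chr9:7445702-7445821 for Mmp3, chr9:7272394-7272513 for Mmp13 and chr5:90891125-90891244 for Cxcl1. Capitals mark matches on either strand to TGANTCA, the AP-1 motif, in the first pair and to an NF-kB motif, GGG then 2 bases of any kind then TTTCC, in Cxcl1.
Mmp3: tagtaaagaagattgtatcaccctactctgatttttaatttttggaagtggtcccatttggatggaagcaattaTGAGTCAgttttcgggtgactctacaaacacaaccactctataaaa
Mmp13: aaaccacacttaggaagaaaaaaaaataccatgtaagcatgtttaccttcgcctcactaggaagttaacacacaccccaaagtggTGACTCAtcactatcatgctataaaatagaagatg
Cxcl1: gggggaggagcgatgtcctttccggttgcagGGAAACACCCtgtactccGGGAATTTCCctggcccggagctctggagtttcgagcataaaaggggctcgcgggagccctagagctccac
The AP-1 match began 46 bases before the start in Mmp3 and 35 bases before it in Mmp13, and the matches in Cxcl1 began 89 and 71 bases before it. Over all 32851 promoters of the table, 3.41% held the AP-1 motif and 0.737% the NF-kB motif in the same window. Of 14 tested protease list genes with a promoter in the table, 4 held the AP-1 motif in any promoter (28.6%). Mmp3 and Mmp13, shown for that motif, are among them. Counted per gene, this share is unlike the share per promoter over the table. By the same count it was 5.26% of 19 complement and acute phase genes. It was 0% of 25 immediate early, 13 red cell and 23 cytokine receptor and signalling genes. The matches describe letters in this window and no binding.

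Mmp3, which encodes stromelysin, was at 1015.7 and 338.0 on the wild-type carrier arrays and 104.3 and 219.1 on the wild-type CCL3 arrays. In Ccl3-/- it was at 1120.1 and 411.0 with carrier and 134.3 and 154.0 with CCL3. All 4 carrier arrays lay above all 4 CCL3 arrays, and the difference was -1.57 ± 0.37, a 2.96-fold lower level. Mmp13, a collagenase of bone and of inflamed tissue, was at 3955.6, 1165.5, 8402.5 and 3480.6 on the carrier arrays and at 840.2, 1879.9, 1145.1 and 1208.9 on the CCL3 arrays. Its groups overlapped in the wild type (-1.42 ± 0.44). Mmp14, a membrane-bound protease, was at -0.83 ± 0.28 without overlap in either genotype, and Mmp12, the macrophage elastase, was at -0.75 ± 0.28. Timp1, the secreted inhibitor of these enzymes, was at -0.65 ± 0.25, so an inhibitor lay in the same direction as the proteases.

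Of 32 listed matrix proteases and inhibitors, 27 were on the array and 17 were tested. After CCL3, 14 of these were lower and 3 higher, with 5 lower and none higher at the unadjusted p, against 2.04% of all named genes lower, and 2 lower without overlap, against 2.38%. The median was -0.44, with -0.23 in the wild type and -0.52 in Ccl3-/-. The number of lower genes under the unadjusted p ran from 3, without Ccl3-/- carrier replicate 2, to 8, without wild-type carrier replicate 2, and was 4 without wild-type carrier replicate 1. Ibsp, the bone sialoprotein, was at 3258.3 and 3090.6 on the Ccl3-/- carrier arrays and at 750.7 and 772.5 on the Ccl3-/- CCL3 arrays. In the wild type Ibsp overlapped, at 1088.9 and 785.4 with carrier and 442.4 and 1736.5 with CCL3. The summed level of the 19 bone and cartilage genes on the array was 14757.3 to 23112.5 with carrier and 12399.5 to 17827.4 with CCL3. Their part in the protease difference was not tested.

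Lox had the smallest p of any named gene. It encodes lysyl oxidase, which cross-links collagen and elastin. The intensity was 969.0 and 930.1 on the wild-type carrier arrays, 424.8 and 451.0 on the wild-type CCL3 arrays, 1324.9 and 2412.8 on the Ccl3-/- carrier arrays, and 388.2 and 438.7 on the Ccl3-/- CCL3 arrays. The CCL3 arrays were close together and below every carrier array, at -1.42 ± 0.25 (adjusted p = 0.349 in limma), a 2.68-fold lower level. A second, dimmer Lox probe set was at -0.10 ± 0.33. The 40 tested collagen and matrix genes did not share the direction, with 18 higher, 22 lower and a median of -0.02. Col11a1, a fibrillar collagen of cartilage, was at 0.44 ± 0.20, and Postn, a matrix protein of injured tissue, was at -0.44 ± 0.23.

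Selp, a gene of leukocyte exit from the blood, encodes P-selectin, which endothelium and platelets expose to slow passing leukocytes. It was at 693.5 and 107.6 on the wild-type carrier arrays, 615.9 and 388.4 on the Ccl3-/- carrier arrays, and between 53.8 and 87.2 on the 4 CCL3 arrays. All carrier values were above all CCL3 values (-1.57 ± 0.42), though wild-type carrier replicate 2 was only just above. Itgb2, the beta chain of leukocyte integrins, was at -0.52 ± 0.27 without overlap in either genotype. Of 18 tested adhesion and trafficking genes, a list that also holds Mmp3 and Timp1, 12 were lower and 6 higher, with a median of -0.16. Those under the unadjusted p were Mmp3, Selp and Timp1, all lower, against 2.04% of all named genes, and 3 of the list were lower without overlap, against 2.38%. Without wild-type carrier replicate 1, 4 were lower at the unadjusted p and the median was -0.13. The tested platelet genes numbered 2, at a median of -0.15.

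The chemokine Cxcl1, whose promoter is given above, was at 1014.2, 367.9, 1005.3 and 1067.1 on the carrier arrays and at 288.9, 481.4, 62.4 and 324.3 on the CCL3 arrays. Wild-type carrier replicate 2 was again low, and the difference was -1.35 ± 0.41, with -1.30 ± 0.44 by the second probe set. Cxcl2, which acts on the same receptor, was at -0.70 ± 0.57, and Cxcl5, another ligand of that receptor, was at 0.44 ± 0.23. The CXC list had 5 tested genes, 1 higher and 4 lower, with only Cxcl1 under the unadjusted p, against 2.04% of all named genes lower. Among CC chemokines, the relatives of CCL3, 7 of 14 on the array were tested, 4 higher and 3 lower, with a median of 0.06. Ccl6 was at -0.49 ± 0.22 without overlap, and Ccl22, a chemokine of dendritic cells and macrophages, was at 0.49 ± 0.22. Ccl2, the monocyte chemoattractant, was at -0.56 ± 0.38, with 0.08 in the wild type and -1.20 in Ccl3-/-, and Ccl8 was at 0.52 ± 0.38. Of 8 tested chemokine receptors 2 were higher and 6 lower, with none under the unadjusted p. They included Ccr2, the receptor that brings monocytes into tissue (-0.23 ± 0.30), and Ackr3, a scavenging receptor (-0.50 ± 0.25, no overlap).

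**Figure D2:**
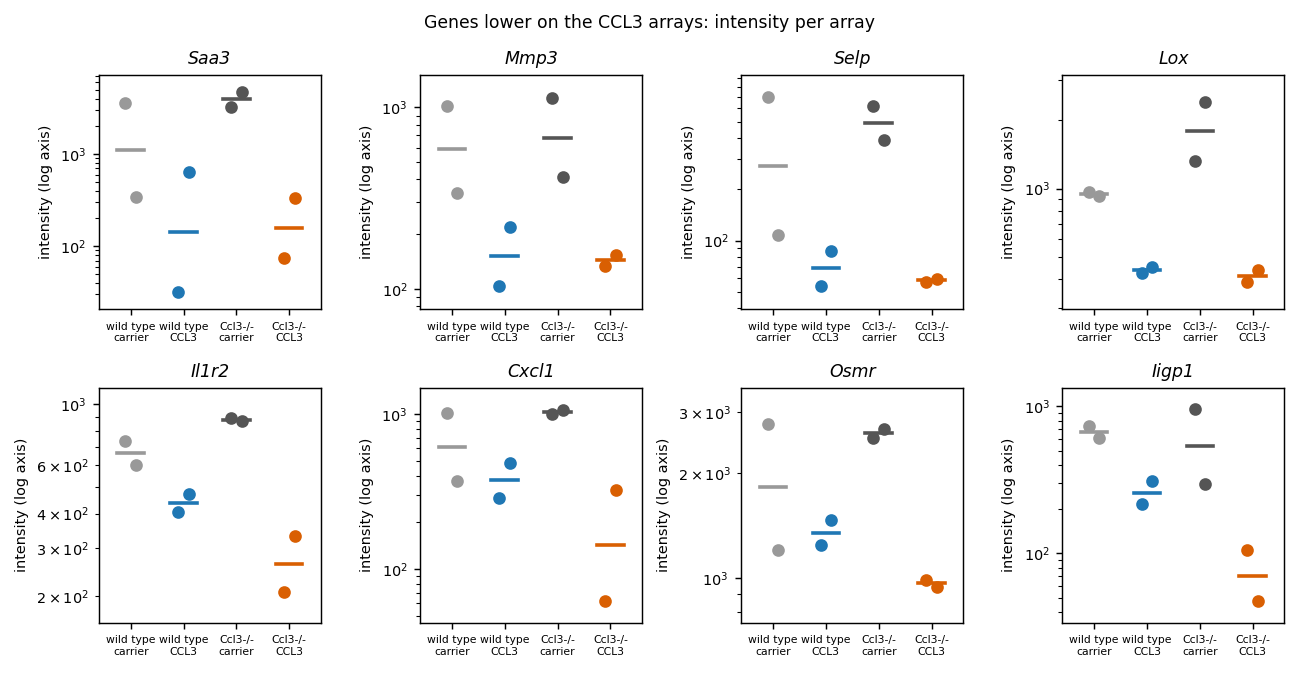
Intensity on each array (log axis) for 8 genes lower after CCL3, by group; each point is an array and each bar the geometric mean of the 2 arrays of a group. The CCL3 points lie below all carrier points for Mmp3, Selp, Lox and Il1r2, and below those of the same genotype for Iigp1, while 1 wild-type carrier array lies among the CCL3 arrays for Saa3, Cxcl1 and Osmr.

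Immediate early genes, which are transcribed within minutes of a stimulus and also of tissue handling, leaned lower. Ccn2, a matrix-associated growth factor, was at 8274.8, 2061.9, 6659.5 and 8205.0 on the carrier arrays and at 2260.5, 2629.4, 2187.6 and 3866.5 on the CCL3 arrays (-1.03 ± 0.36). The low carrier array was once more wild-type carrier replicate 2. Dusp1, a phosphatase that ends kinase signalling, was at -0.64 ± 0.25, Fos, a subunit of AP-1, at -0.62 ± 0.26 and Ccn1 at -0.54 ± 0.24, each without overlap in either genotype. Of 30 tested immediate early genes 24 were lower and 6 higher, with 4 lower and none higher at the unadjusted p, against 2.04% of all named genes lower. The median was -0.22, with -0.06 in the wild type and -0.44 in Ccl3-/-. Those 4 lower genes became 0 without Ccl3-/- carrier replicate 2 or without Ccl3-/- CCL3 replicate 1, 2 without wild-type carrier replicate 1 or without Ccl3-/- CCL3 replicate 2, and 8 without wild-type carrier replicate 2.

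Interferon response genes did not share a direction. Iigp1, an interferon-induced GTPase, was at 736.1, 614.7, 959.9 and 297.5 on the carrier arrays and at 215.6, 310.0, 104.8 and 47.3 on the CCL3 arrays. Within each genotype these did not overlap (-1.49 ± 0.34), and a second probe set was at -0.81 ± 0.23. Gbp2, another such GTPase, was at -0.59 ± 0.24, Ifi47 at -0.65 ± 0.31 and Ifi27 at 0.47 ± 0.24. The 23 tested genes had 9 higher and 14 lower, and a median of -0.09. Of the 23, 2 were lower under the unadjusted p, against 2.04% of all named genes. The 14 tested genes of MHC class I presentation had 4 higher and 10 lower, with none under the unadjusted p.

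The remaining genes with the smallest p in the lower direction belonged to no list and differed by less than 2-fold, except Pofut2. Nr1d1, the circadian repressor REV-ERB alpha, was at 1694.2, 1844.9, 1191.5 and 1466.4 on the carrier arrays and at 1099.3, 806.9, 770.3 and 912.1 on the CCL3 arrays (-0.72 ± 0.18). Pofut2, which adds fucose to thrombospondin repeats, was at -1.08 ± 0.26, and C1galt1c1, a chaperone of an O-glycan enzyme, was at -0.96 ± 0.25. Nfe2l3, a transcription factor, was at -0.81 ± 0.22, and Zfp281, a zinc finger protein, at -0.63 ± 0.18. Celsr2, an adhesion receptor of epithelial and neural cells, was at -0.71 ± 0.17 by one probe set and 0.18 ± 0.28 by another. Of the 12 lower genes named for the smallest p, 11 had no overlap in either genotype, Saa3 being the exception. Such genes were chosen on this contrast, and their lack of overlap adds nothing to it.

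Alas2, the enzyme that starts haem synthesis in red cells, had the smallest p of the named genes higher after CCL3. It is driven by GATA1, and its promoter is shown for the GATA motif it holds. The sequence is the 120 bases before the start, chrX:150547297-150547416 of GRCm38.p6 on the forward strand, from RefSeq, with the match to AGATAA on the opposite strand in capitals.
Alas2: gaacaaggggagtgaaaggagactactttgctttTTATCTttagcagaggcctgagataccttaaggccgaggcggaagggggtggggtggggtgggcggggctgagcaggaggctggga
The match began 86 bases before the start. In that window 4.36% of all promoters in the table held the motif, and 2 of 13 tested red cell genes with a promoter there did (15.4%). Alas2, shown for that motif, is among the 2, and genes were counted by any of their promoters. By that count the share was 8% of 25 immediate early genes and 5.26% of 19 complement and acute phase genes. It was 0% of 14 protease list genes and 23 cytokine receptor and signalling genes.

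Alas2 was at 803.4 and 735.0 on the wild-type carrier arrays and 1533.5 and 1089.5 on the wild-type CCL3 arrays. In Ccl3-/- it was at 1388.5 and 1531.6 with carrier and 2704.2 and 3470.3 with CCL3. The arrays did not overlap within either genotype, and the difference was 0.85 ± 0.19, a 1.80-fold higher level. Hbb-b2, an adult beta globin gene whose copies can share signal, was at 10545, 7578.9, 10252 and 8033.4 on the carrier arrays. After CCL3 it was at 13627 and 12220 in the wild type and 20839 and 21076 in Ccl3-/-, above every carrier array (0.86 ± 0.20). Hba-a1, the alpha globin gene, was at 46598 and 26791 on the wild-type carrier arrays, on either side of the CCL3 arrays at 42590 and 43494 (0.60 ± 0.20). Bpgm, the red cell enzyme that makes the regulator of oxygen binding, was at 0.60 ± 0.21 without overlap. Car2, a carbonic anhydrase of red cells and of olfactory neurons, was at 0.35 ± 0.20.

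Of 35 listed red blood cell genes 22 were on the array and 17 were tested. After CCL3, 13 were higher and 4 lower, with 4 higher and none lower at the unadjusted p, against 2.43% of all named genes higher, and 3 without overlap, against 3.09%. The median was 0.35, with 0.07 in the wild type and 0.58 in Ccl3-/-. The summed level of the list was 62408.4 to 78614.5 on the carrier arrays and 83614.9 to 118201.6 on the CCL3 arrays, without overlap. Hba-a1 and Hbb-b2 made up most of that sum on each array. The median log2 deviation of the list's genes did overlap in the wild type. It was -0.177 and 0.0861 on the carrier arrays and -0.0946 and -0.0036 on the CCL3 arrays. In Ccl3-/- it was -0.0685 and -0.3977 with carrier and 0.5943 and 0.195 with CCL3. Leaving out 1 array at a time gave 3 to 7 genes higher at the unadjusted p and a median of 0.20 to 0.50; without wild-type carrier replicate 1 these were 4 genes and 0.32. The highest number, 7, was found without wild-type carrier replicate 2. The share of blood in each sample was not measured, so how much of these differences it carries was not tested.

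**Figure D3:**
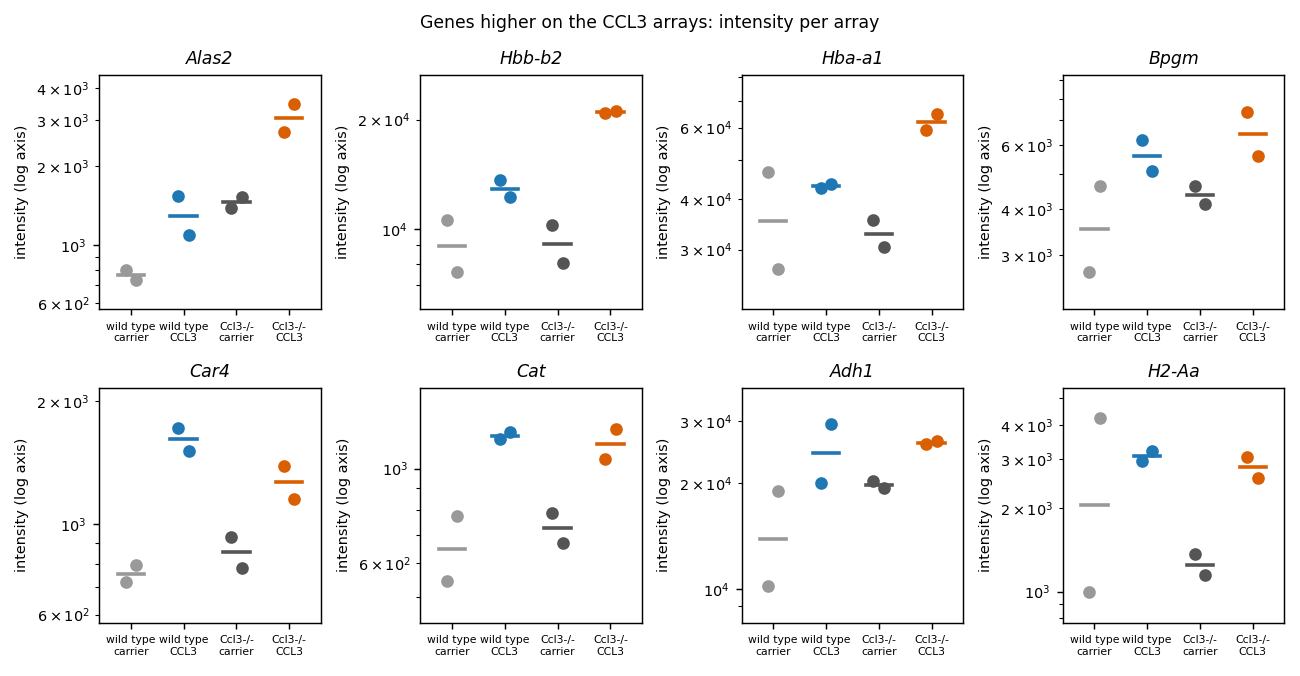
Intensity on each array (log axis) for 8 genes higher after CCL3, by group; each point is an array and each bar the geometric mean of the 2 arrays of a group. CCL3 points lie above the carrier points of the same genotype for Alas2, Hbb-b2, Bpgm, Car4, Cat and Adh1, while a wild-type carrier array overlaps the wild-type CCL3 arrays for Hba-a1 and H2-Aa.

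Detoxification genes of the sustentacular cells, the supporting cells that metabolise odorants and foreign compounds, leaned higher by a small amount. Fmo1, a flavin monooxygenase, was at 2898.1, 3698.8, 3010.2 and 2959.9 on the carrier arrays and at 4120.9, 4516.5, 4057.1 and 5266.1 on the CCL3 arrays, with no overlap (0.50 ± 0.18). Adh1, an alcohol dehydrogenase, was at 10197, 18964, 20237 and 19364 on the carrier arrays and at 20032, 29422, 25758 and 26272 on the CCL3 arrays (0.60 ± 0.22). Wild-type carrier replicate 1 was the low carrier array, and without it the Adh1 difference was 0.38. Gsta2, a glutathione transferase, was at 0.49 ± 0.19. Ces1d, a carboxylesterase, was at 0.38 ± 0.14 by one probe set and 0.08 ± 0.14 by another. Of 62 listed genes 39 were tested, 29 higher and 10 lower, with 6 higher and none lower at the unadjusted p, against 2.43% of all named genes higher, and 7 higher without overlap, against 3.09%. The median was 0.12. That number of 6 ran down to 2 without Ccl3-/- CCL3 replicate 2, 3 without wild-type CCL3 replicate 1 and 4 without wild-type carrier replicate 1.

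MHC class II and dendritic cell genes leaned higher. Their products present peptides to CD4 T cells. H2-Aa, a class II alpha chain, was at 997.1, 4218.0, 1364.4 and 1144.5 on the carrier arrays and at 2971.7, 3208.6, 3061.9 and 2574.1 on the CCL3 arrays (0.83 ± 0.35). The CCL3 arrays were alike, while wild-type carrier replicate 2 was the highest of all, and without that array the difference was 1.28. H2-DMb2, which loads peptide onto class II, was at 0.71 ± 0.28 with no overlap within either genotype, H2-DMa at 0.51 ± 0.21 and Fscn1, an actin bundler of mature dendritic cells, at 0.40 ± 0.20. Of 13 tested genes of the list, 11 were higher and 2 lower, with 3 higher at the unadjusted p, against 2.43% of all named genes, and 2 higher without overlap, against 3.09%. The median was 0.30. That number of 3 became 0 without wild-type CCL3 replicate 2, 5 without wild-type carrier replicate 2, 2 without wild-type CCL3 replicate 1, and 1 without any single one of the other arrays.

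Several metabolic genes were among the 12 named for the smallest p in the higher direction. Car4, a membrane carbonic anhydrase, was at 719.3, 792.3, 927.0 and 782.0 on the carrier arrays and at 1716.0, 1507.7, 1385.3 and 1152.4 on the CCL3 arrays (0.76 ± 0.18), while its other probe set was at -0.14 ± 0.22. Cat, the catalase that breaks down hydrogen peroxide, was at 545.1, 773.8, 787.9 and 668.9 on the carrier arrays and at 1172.9, 1218.4, 1054.9 and 1236.9 on the CCL3 arrays (0.69 ± 0.18), and at 0.11 ± 0.18 by a brighter probe set. Neither gene overlapped between the injections by the probe set given first. Ivd, a mitochondrial enzyme of leucine breakdown, was at 0.74 ± 0.20, and Gpd1, which links glycolysis to lipid synthesis, was at 1.08 ± 0.29 with overlap in Ccl3-/-. Rab3a, a GTPase of synaptic vesicles, was at 0.79 ± 0.21, Mc3r, a melanocortin receptor, at 0.97 ± 0.26, Rrp12, a ribosome assembly factor, at 0.63 ± 0.17 and Supt6, a histone chaperone of transcription, at 0.63 ± 0.17. Rhou, a small GTPase, was at 1.10 ± 0.30 by one probe set and 0.14 ± 0.18 by the other, with 1.69 and 0.50 in the wild type and in Ccl3-/- by the first. Mc3r was dim on every carrier array, at 137.1 to 280.4 against 424.3 to 595.5 after CCL3.

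Glandular kallikreins, secreted proteases of the submucosal and salivary type glands, were higher on most CCL3 arrays. Klk1b22 was at 1686, 1300, 1970.5 and 2541.2 on the carrier arrays and at 3103.5, 4654.3, 5488.4 and 2441.8 on the CCL3 arrays (1.00 ± 0.27). Klk1b1 (0.95 ± 0.35) and Klk1 (0.73 ± 0.26) had the same pattern, with the Ccl3-/- CCL3 replicate 2 array low, and the family's near-identical members can share signal. Wfdc18, a small secreted protein of glands, was at -0.88 ± 0.37, with -0.07 in the wild type and -1.68 in Ccl3-/-. The largest differences of the whole table in the higher direction among named genes were in nasal gland products and rested on wild-type carrier replicate 1. Lcn4, a lipocalin of nasal glands picked after its values were seen, was at 22.4 there and at 2124.3 to 31464 on the other 7 arrays (2.46 ± 1.32). Lcn3 was at 92.4 on that array and 11526 to 41632 on the others (2.13 ± 1.28), and Dmbt1, a mucosal scavenger protein, was at 324 there and 5102 to 46242 on the others (1.58 ± 1.12). Of 24 tested gland genes 14 were higher and 10 lower. Under the unadjusted p 2 were higher and 1 lower, against 2.43% and 2.04% of all named genes.

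The list of bone and cartilage genes, which also holds Mmp13, had 5 of 12 tested genes higher and 7 lower, with a median of -0.03. Under the unadjusted p were 2 in each direction, against 2.43% of all named genes higher and 2.04% lower. Acan, the proteoglycan aggrecan of cartilage, was at 100.8, 957.6, 435.2 and 397.4 on the carrier arrays and at 709.8, 818.8, 2559.7 and 1177.2 on the CCL3 arrays (1.37 ± 0.45). Col11a2, a cartilage collagen, was at 0.82 ± 0.32 without overlap within either genotype. Ibsp was at -0.98 ± 0.42. The mucosa lies on turbinate bone and cartilage, and the amount of either in each sample is not given.

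Macrophage genes, the subject of the series' title, did not separate CCL3 from carrier. Of 55 listed markers 44 were on the array and 31 were tested, 19 higher and 12 lower. None was under the unadjusted p in either direction, and 1 was lower without overlap, against 2.38% of all named genes. The list's median was 0.06, with 0.12 in the wild type and 0.01 in Ccl3-/-, and its single genes ran from -0.37 to 0.36. Cd68, a lysosomal protein of macrophages picked outside the naming rule, was at 1094.5, 2358.7, 2020.2 and 2455.8 on the carrier arrays and at 2241.2, 2896.3, 2070.2 and 2403.9 on the CCL3 arrays (0.31 ± 0.25). Spi1, the transcription factor PU.1, was at -0.37 ± 0.24, with -0.80 in the wild type and 0.05 in Ccl3-/-. Laptm5, a lysosomal protein of leukocytes, was at 0.25 ± 0.19 and Fcgr2b, an inhibitory Fc receptor, at -0.30 ± 0.21. Ctsb, a lysosomal protease, was at 0.24 ± 0.16 by its brightest probe set. By dimmer ones it was at -0.03 ± 0.26 and -0.60 ± 0.32. The summed level of the 44 markers was 163477.3 to 214981.2 with carrier and 186083.4 to 198940.5 with CCL3, so the CCL3 range lay inside the carrier range. The 27 tested lysosome and phagosome genes had 17 higher, 10 lower, none under the unadjusted p and a median of 0.06.

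Neutrophil markers were split, with 10 of 19 tested higher and 9 lower and a median of 0.00. That median was 0.08 in the wild type and -0.55 in Ccl3-/-, and its sign over both genotypes depended on the scaling. Slfn4, an interferon-induced gene of myeloid cells, was at -0.64 ± 0.25 without overlap, Pglyrp1, an antibacterial granule protein, at 0.45 ± 0.20 and 0.42 ± 0.17 by separate probe sets, and Anxa1, a regulator of neutrophil entry, at -0.69 ± 0.35. On the Ccl3-/- carrier arrays this Anxa1 probe set was at 19215 and 43626, above the 8793 and 12399 of the Ccl3-/- CCL3 arrays, whereas the wild type overlapped. The 14 tested T, B and NK cell markers had 8 higher and 6 lower with none under the unadjusted p. Cd4 was at 0.42 ± 0.25, and Jchain, which joins secreted IgA and IgM, at 0.51 ± 0.27. Of 5 tested mast cell, basophil and eosinophil genes 4 were higher. Tpsb2, a mast cell tryptase, was at 0.46 ± 0.17 without overlap by one probe set and at -0.16 ± 0.27 by the other.

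The olfactory neuron lineage showed no list with a clear lean. Of 21 tested genes of mature neurons 15 were higher and 6 lower, none under the unadjusted p, with a median of 0.12. Omp was at 4251.1, 12949, 21779 and 8657 on the carrier arrays and at 12512, 14771, 16002 and 19808 on the CCL3 arrays (0.62 ± 0.35), so the carrier arrays spanned the CCL3 arrays. Of 22 genes of immature neurons 14 were higher and none was under the unadjusted p. Gap43, the growth cone protein of regrowing axons, was at 0.60 ± 0.31 and Stmn1, a microtubule regulator, at 0.63 ± 0.30. Globose basal cell and precursor genes had 15 of 25 higher. Notch1 (0.56 ± 0.22) was the only one under the unadjusted p, against 2.43% of all named genes higher. A dimmer Notch1 probe set was at -0.12 ± 0.26. Nhlh1, a transcription factor of differentiating neurons, was at 0.49 ± 0.23 and Kit, a receptor of dividing precursors, at 0.38 ± 0.21. Trp63, the transcription factor that holds horizontal basal cells in reserve, was at 833.7, 713.7, 1174.4 and 921.1 on the carrier arrays and at 646.3, 559.9, 561.5 and 663.5 on the CCL3 arrays, without overlap (-0.50 ± 0.19). Of the 20 tested genes of that list, Trp63 included, 9 were higher and the median was -0.02, a sign that depended on the scaling.

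Of 37 tested mitosis genes 10 were higher and 27 lower, with a median of -0.11. Only 1 was lower under the unadjusted p, a share near the 2.04% of all named genes. Without Ccl3-/- carrier replicate 2 that median was 0.11, and without wild-type carrier replicate 1 it was -0.19 with 3 lower genes under the unadjusted p. Smc4, a condensin subunit, was at 911.3, 913.7, 1712.5 and 1662.3 on the carrier arrays and at 841.5, 813.0, 938.5 and 832.3 on the CCL3 arrays (-0.49 ± 0.19), so most of the difference was in Ccl3-/-. DNA replication genes had 14 of 35 higher and 21 lower. Among them Chaf1b, a subunit of the histone chaperone CAF-1, was at 477.2, 465.9, 460.2 and 527.5 on the carrier arrays and at 195.0, 429.9, 95.1 and 87.2 on the CCL3 arrays (-1.08 ± 0.31), without overlap within either genotype.

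**Figure D4:**
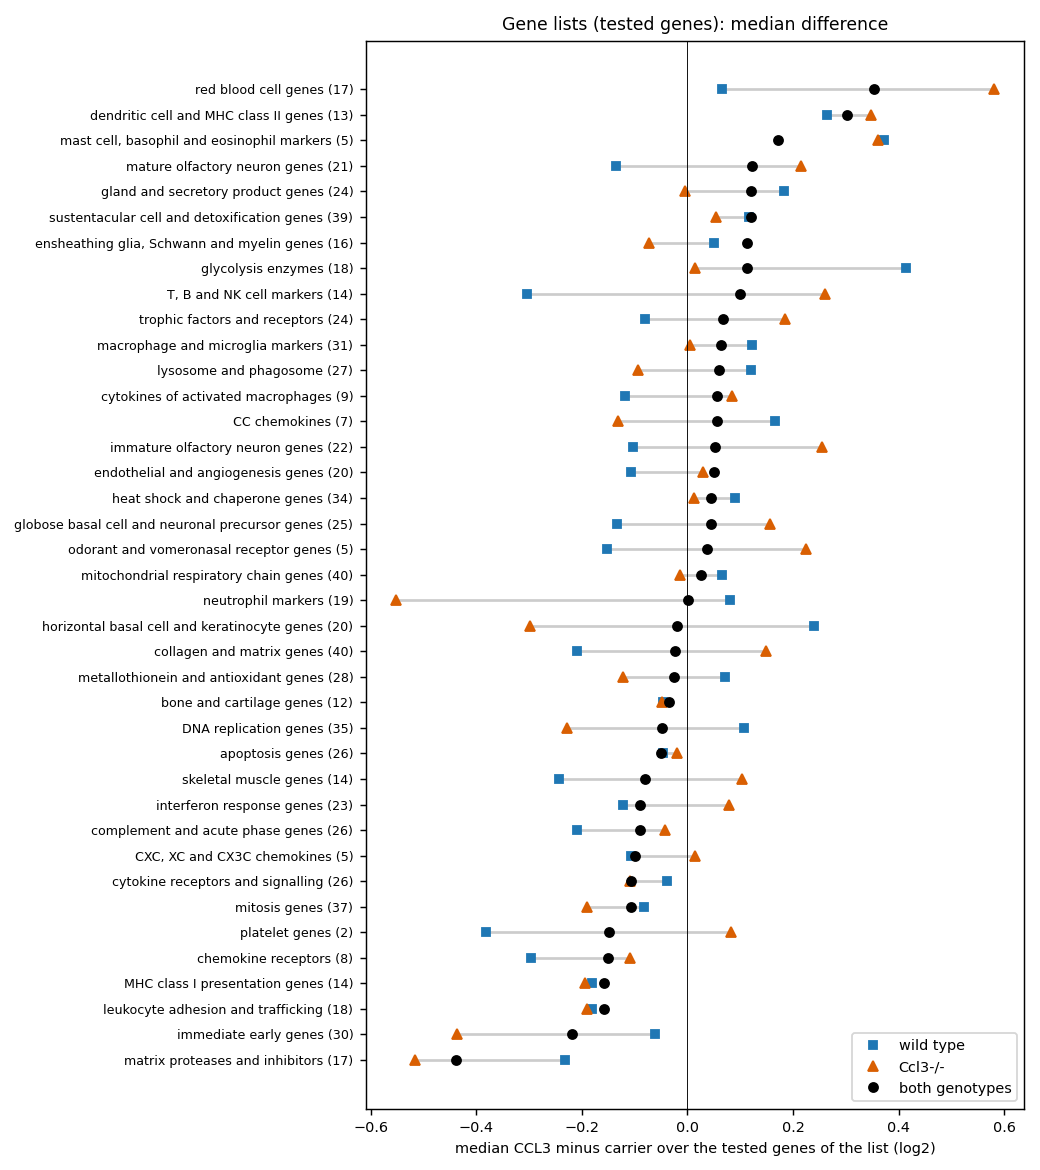
Median CCL3 minus carrier difference (log2) over the tested genes of each of 39 lists, with the number tested in brackets; circles are both genotypes together, squares the wild type and triangles Ccl3-/-. Matrix proteases lie lowest, at -0.44, and red blood cell genes highest, at 0.35, and for both the median in Ccl3-/- lies further from 0 than that in the wild type, a gap that was not tested.

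In the plot of list medians, lists not described above lay nearer to 0 than the lists of proteases and red cell genes. The median of glycolysis enzymes, 0.11, was 0.41 in the wild type and 0.01 in Ccl3-/-, and it was -0.04 without wild-type carrier replicate 1, where these genes were low, 0.27 without either wild-type carrier replicate 2 or Ccl3-/- carrier replicate 2, and 0.22 without Ccl3-/- CCL3 replicate 2. Medians were 0.11 for glia and myelin genes, 0.05 for endothelial genes and for heat shock genes, and 0.07 for trophic factors. They were -0.05 for apoptosis genes, -0.08 for skeletal muscle genes, -0.03 for metallothionein and antioxidant genes, 0.03 for respiratory chain genes and 0.04 for odorant and vomeronasal receptors. None of these lists had more than 2 genes under the unadjusted p in a direction, against 2.43% of all named genes higher and 2.04% lower.

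The difference between genotypes in the response to CCL3 was tested as an interaction, (CCL3 minus carrier in Ccl3-/-) minus (CCL3 minus carrier in the wild type). No probe set passed (lowest adjusted p 0.908 in limma), and 412 (5.06%) were under an unadjusted p of 0.05, 260 positive and 152 negative. Pip, the prolactin-inducible secretory protein, was at 582.4 and 842.3 with carrier and 1244.7 and 3355.0 with CCL3 in the wild type, and at 3662.1 and 5749.7 with carrier and 676.7 and 1643.6 with CCL3 in Ccl3-/-. CCL3 arrays were thus higher in the wild type and lower in Ccl3-/- (interaction -3.43 ± 0.70). Itih2, a hyaluronan-binding plasma protein (-2.12 ± 0.39), B3galt2, a galactosyltransferase (-2.28 ± 0.49), Slfn2, a regulator of T cell quiescence (-2.29 ± 0.56), Cldn4, a tight junction protein (-2.35 ± 0.57), and the second probe set of Il1r2 (-1.84 ± 0.44) had the same sign.

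The opposite sign was found for Alb, which encodes albumin, at 1045.5 and 1301.2 with carrier and 222.6 and 314.7 with CCL3 in the wild type. In Ccl3-/- Alb was at 244.4 and 171.0 with carrier and 476.0 and 295.6 with CCL3, so the directions were opposite (interaction 2.43 ± 0.48). Kat2a, a histone acetyltransferase, was at 3.04 ± 0.61, and Arhgef2, a guanine nucleotide exchange factor, at 1.79 ± 0.39. H2-Ab1, a class II beta chain, was at -0.47 in the wild type and 1.04 in Ccl3-/-. Clgn, a chaperone of the endoplasmic reticulum, was at 2.56 ± 0.55 by one probe set and 0.11 ± 0.52 by a brighter one. Prp2 was at 2.21 ± 0.54 by one probe set and -0.30 ± 0.96 by the other. All interaction values here had an adjusted p of 0.908 in limma or above.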

How the data were processed

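Total RNA of olfactory mucosa was measured on 8 single-colour arrays, grouped by the sample titles. The deposited table holds 1 linear intensity per probe set and array, as the authors processed it with software and scaling that the sources used here do not state. Trimmed means (2% at each end) of the deposited intensity values agreed within 0.00834% of their mean, so values were not normalized again. Of 12488 probe sets, 66 controls were left out; the platform annotation gave a single symbol for 10855, several for 396, which were not named, and none for 1237. Symbols of 16 had no record in the GRCm38.p6 gene table, which gave names only.

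Values were tested as log2(intensity + 102.3), the 20th percentile, for probe sets above 362.7, the 40th percentile, on 2 or more arrays. limma (version 3.58.1, R 4.3.3) fitted injection and genotype to all 8 arrays with an intensity trend, Benjamini-Hochberg adjustment and a threshold of 0.05; the interaction came from the 4 group means. The 39 lists used the brightest tested probe set of each gene. Named genes were Ccl3, Ccl4, Ccr1 and a gene not reported here, the 12 of smallest p in each direction (the largest passing ones first, of which there were none), up to 4 of each list by p, and the 6 with the smallest interaction p in each direction; others are marked in the text. The comparison, its lists and its rules were chosen with earlier results of these data known. Alternatives were other scalings, pseudocounts, filters, spread models, genotype terms, the replicate number as a block, and each array left out. The fit was tested on simulated data made from these 8150 probe sets, with independent noise. There, 57.4% of those altered 2-fold and 92.2% of those altered 4-fold were recovered. Many probe sets were altered at once, by up to 16-fold, which eases the adjusted threshold. These shares therefore do not tell how many such differences would pass in the real data. The number of arrays limits the precision. Promoters came from RefSeq. Figures were drawn with matplotlib.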

Additional observations from a re-analysis of the deposited data

Results flagged for a closer look

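In groups of 4 arrays, the highest or lowest array was checked for its distance from the other 3. Of 236 checks of named genes and array measures, 19 found an array far from the rest. Chance gives about 1 in 20 for independent values from a single normal distribution. Each group here holds both genotypes, and the checks share arrays and genes chosen on them. That rate is therefore no reference for the 19. Wild-type carrier replicate 2 was the low carrier array for Saa3 (341.8), Osmr (1203.6), Ccn2 (2061.9) and Cxcl1 (367.9), and the high one for Supt6 (2357.6) and Fmo1 (3698.8). Wild-type carrier replicate 1 was the low carrier array for Adh1 (10197) and Lcn3 (92.4), and its Gapdh 3' to 5' ratio of 2.59 was the high one. Its beta-actin ratio, the lowest of all arrays at 1.58, was not flagged. Timp1 was high on Ccl3-/- carrier replicate 2 (7180.5).

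Among the CCL3 arrays, Ccl3-/- CCL3 replicate 1 was low for Rhou (1345.7) and Dusp1 (2592.8) and high for Prp2 (1239.9). Ccl3-/- CCL3 replicate 2 was low for Lcn4 (2124.3) and Lcn3 (11526), and it lay closer to the mean of all arrays than the other CCL3 arrays, at a root mean square distance of 0.265. Pdgfb was low on wild-type CCL3 replicate 1 (119.9). Ccl2 was high (517.2) and Ccr1l1, a receptor gene related to Ccr1, low (103.3) on wild-type CCL3 replicate 2.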

How the results depend on the processing

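The number of probe sets past an adjusted p of 0.05 was 0 and became 1 with array quality weights (adjusted p = 0.0405 in limma), the higher unnamed probe set, and 0 to 1 with 1 array left out; it was 0 under the other scalings, pseudocounts, filters, spread models and genotype terms. At an unadjusted p under 0.05 the number was 611 without a filter, 217 when filtered at the 60th percentile, and 222 (without Ccl3-/- CCL3 replicate 1) to 857 (without wild-type carrier replicate 2) with 1 array left out. Probe sets without overlap numbered 719 without a filter and 266 when filtered at the 60th percentile. The interaction gave 0 under every alternative run. Deviations of same-numbered arrays from their group means had correlations of -0.158 to 0.178 over 6 pairs of groups. Without a reference for such values, they cannot tell whether the numbers share a pairing. With the replicate number as a block 1 probe set passed (adjusted p = 0.0359 in limma) and 360 were under the unadjusted p. Of 114 named probe sets, 110 kept their direction in all alternatives. Most were named for a small p on these same arrays, so a kept direction adds no separate support. The average took the opposite sign for Kat2a with array quality weights (0.23) and, with 1 array left out, ran from -0.45 to 0.49 for Kat2a, -0.75 to 0.083 for Clgn, -0.13 to 0.16 for Ccl3 and -0.91 to 0.28 for Pip. List medians had the same sign under the alternatives run for 16 of 39 lists, among them matrix proteases, immediate early, acute phase, adhesion, red cell, class II and detoxification genes. A group left with 1 array is assumed to vary like the others. The causes were not tested.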
